A study of Mus musculus with 24 samples.

Results

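The genes described here are those whose response to 1,25(OH)2D3 (VD3), the hormonal form of vitamin D, differed in size or sign between adipogenic and osteogenic mouse marrow-derived mesenchymal stem cells at day 7. For each gene the VD3 effect in osteogenic cells was subtracted from the VD3 effect in adipogenic cells, on the log2(RPKM + 1) scale, and 384 of 21097 tested genes had a difference with an adjusted p below 0.05. That count was 199 when libraries were rescaled by median ratio, and 227 when a background level (the median of sensory receptor genes) was subtracted from each library. The comparison used 12 of the 24 libraries of the study, 3 in each of 4 groups. Adipogenic cells had been in medium with insulin, indomethacin and dexamethasone for 7 days, and osteogenic cells in medium with beta-glycerophosphate and ascorbic acid for 7 days. In each fate, 1 group received 100 nM VD3 and the other ethanol vehicle, each for 24 hours. All 4 groups came from the same kind of cryopreserved stock, used at no more than 10 passages, and no label says whether the 3 libraries of a group were separate cultures. The p-values therefore measure the spread among libraries, which may be technical. The other 12 libraries (undifferentiated cells at day 0 and osteogenic cells at day 15, each with VD3 or vehicle) entered the estimate of the spread and are used below as libraries whose VD3 effects did not choose the genes.

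VD3 acts through the vitamin D receptor (Vdr), a nuclear receptor that binds DNA as a heterodimer with a retinoid X receptor such as Rxra and recruits coactivators or corepressors. It induces Cyp24a1, the enzyme that inactivates the hormone. In cells of the osteoblast lineage VD3 is known to regulate genes of bone matrix, matrix degradation and mineralization, and in preadipocytes it is known to oppose adipogenesis when given early. In the text below, a difference of VD3 effects is adipogenic minus osteogenic: a positive value means that VD3 raised the gene more, or lowered it less, in adipogenic cells.

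Depth, estimated from the steps between low values, was 21.2 to 33.4 M reads in the 6 adipogenic libraries and 11.9 to 46.9 M reads in the 6 osteogenic libraries, the lowest being osteogenic vehicle replicate 3. The median RPKM of sensory receptor genes, taken as a measure of signal where none is expected, was 0.496 to 1.31 in adipogenic VD3, 0.599 to 0.834 in adipogenic vehicle, 0.274 to 0.842 in osteogenic VD3 and 0.208 to 0.404 in osteogenic vehicle libraries. The labelled fates carried their markers. The summed RPKM of 9 adipocyte markers was 28045 to 31706 in adipogenic VD3 and 31303 to 33430 in adipogenic vehicle libraries, against 209.8 to 237 in osteogenic VD3 and 149 to 159 in osteogenic vehicle libraries. The sum of 9 osteoblast markers was 43.4 to 55.1 RPKM in adipogenic VD3 and 130.3 to 153 RPKM in adipogenic vehicle libraries, against 542 to 636 RPKM in osteogenic VD3 and 713 to 777 RPKM in osteogenic vehicle libraries. Ibsp, bone sialoprotein, had the largest fall of the 9 in both fates. It averaged 3.23 RPKM with VD3 and 104 RPKM with vehicle in adipogenic cells, and 89.1 and 264 RPKM in osteogenic cells. Alpl, Bglap, Col1a1 and Dmp1 had higher means with VD3 in adipogenic cells, where Bglap2, Phex, Runx2 and Sp7 had lower ones. In osteogenic cells Alpl, Bglap, Bglap2, Col1a1 and Runx2 had higher means, and Dmp1, Phex and Sp7 lower ones. Alpl averaged 17.3 to 21.1 RPKM in all 4 groups. In bulk RNA, fewer cells of a type and less RNA per cell cannot be told apart, which touches every value below.

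Of the 384 genes (1.82% of those tested), 204 had a more positive VD3 effect in adipogenic cells (0.967% of those tested) and 180 a more negative one (0.853%), and 2147 genes had an unadjusted p below 0.05. With quantile normalization the split turned, to 133 more positive and 175 more negative effects. VD3 changed 439 genes in adipogenic cells (2.08% of those tested), 318 up and 121 down (1.51% and 0.574%). In osteogenic cells it changed 1110 genes (5.26%), 614 up and 496 down (2.91% and 2.35%), or 719 without osteogenic vehicle replicate 2. With rescaling by median ratio the osteogenic split was 314 up and 495 down. Of the 21097 genes, 7184 had both adipogenic means below 1 RPKM and 7996 had both osteogenic means below it. A stricter filter, which asked for an average of 1 RPKM in each fate, left 11390 genes. Of these, 486 had a passing difference, 343 rose and 139 fell in adipogenic cells, and 713 rose and 558 fell in osteogenic cells. The shares over all genes given below are therefore lower than those among expressed genes. The largest class among the 384 genes was of 216 genes called in osteogenic cells alone: 104 of them rose there and 112 fell there. Another 84 were called in adipogenic cells alone, with 49 rises and 35 falls. Another 53 were called in both fates, of which 35 moved the same way by different amounts and 18 moved in opposite directions. The remaining 31 passed in neither fate, only in the difference between them. The difference was at least 1 log2 for 63 of the 204 genes and 73 of the 180. VD3 and vehicle libraries did not overlap for 231 of the 384 genes in adipogenic cells, where 16% of all genes did not, and for 319 in osteogenic cells, where 17.8% did not, though these values are the ones that chose the genes. The plot of the VD3 effect in one fate against the other shows the 2 groups of genes on either side of the diagonal. Vdr and Spp1, whose differences did not pass the test, lie close to it.

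**Figure D1:**
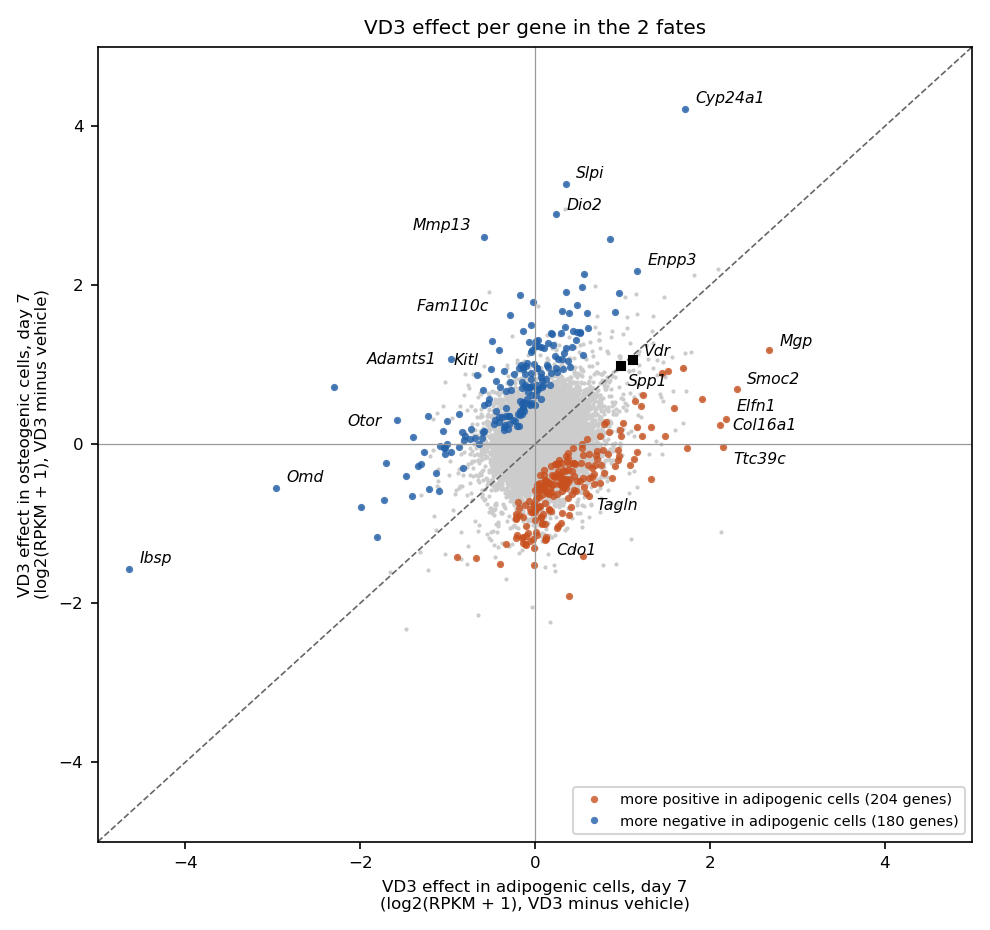
VD3 effect per gene in adipogenic cells (horizontal) and osteogenic cells (vertical) at day 7, each as the difference of group means on log2(RPKM + 1) with 3 libraries a group. Grey points are all 21097 genes tested, orange the 204 and blue the 180 genes whose effect differed, black squares Vdr and Spp1; the dashed line marks equal effects, and Ibsp lies at -4.64 in adipogenic and -1.57 in osteogenic cells.

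VD3 raised the hormone-inactivating enzyme further in osteogenic cells, whereas the difference for its receptor did not pass the test. In adipogenic cells Cyp24a1 was at 2.74, 3.57 and 2.99 RPKM with VD3, against 0.312, 0.0970 and 0.347 RPKM with vehicle. In osteogenic cells it was at 23.2, 18.6 and 17.6 RPKM with VD3, against 0.146, 0 and 0.181 RPKM with vehicle. Every VD3 library lay above every vehicle library of its fate, and the osteogenic VD3 libraries lay above all others. The VD3 effect was 1.71 log2 (adjusted p = 3.48e-06) in adipogenic and 4.22 log2 (adjusted p = 2.44e-12) in osteogenic cells, a difference of -2.51 ± 0.27 log2 (SE; adjusted p = 6.91e-06). With a pseudocount of 0.1 RPKM in place of 1 the difference was -3.43 log2. Vdr, the receptor, was at 2.56, 2.91 and 3.19 RPKM with VD3, against 0.719, 0.821 and 0.797 RPKM with vehicle in adipogenic cells, and at 4.68, 3.47 and 2.49 RPKM with VD3, against 1.40, 0.627 and 1.52 RPKM with vehicle in osteogenic cells. It rose in each fate, and the difference of the 2 effects was 0.067 ± 0.25 log2 (SE; adjusted p = 1). Rxra, its partner, averaged 19.3 ± 0.765 RPKM with VD3 and 18.6 ± 0.367 RPKM with vehicle in adipogenic cells and 14.0 ± 0.967 RPKM with VD3 and 11.5 ± 1.34 RPKM with vehicle in osteogenic cells (SD, n = 3 each), and its difference of -0.21 ± 0.14 log2 (SE; adjusted p = 0.801) did not pass. The secreted phosphoprotein Spp1, a classic VD3 target, averaged 266 ± 8.45 RPKM with VD3 and 134 ± 11.3 RPKM with vehicle in adipogenic cells and 3255 ± 21.1 RPKM with VD3 and 1655 ± 292 RPKM with vehicle in osteogenic cells. These ratios were 1.99 and 1.97, and the difference of -0.0004 ± 0.14 log2 (SE; adjusted p = 1) did not pass either. Tnfsf11, the ligand RANKL, stayed at or below 3.39 RPKM in all 12 libraries, with a difference of -0.37 ± 0.34 log2 (SE; adjusted p = 0.938).

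Of the 26 tested members of a list of textbook VD3 targets, 3 had a more negative effect in adipogenic cells (Mmp13, Cyp24a1 and Enpp3) and 0 a more positive one. With a pseudocount of 0.1 RPKM, 2 had a more negative and 1 a more positive effect. In the main fit the shares over all genes were 0.853% and 0.967%. The list's median effect was 0.219 log2 in adipogenic and 0.398 log2 in osteogenic cells, beside 0.05 and 0.067 over all genes. In adipogenic cells 8 members rose and 1 fell, beside 1.51% and 0.574% of all genes. In osteogenic cells 10 rose and 0 fell, beside 2.91% and 2.35%. Enpp3, an ectonucleotide pyrophosphatase, averaged 1.98 ± 0.309 RPKM with VD3 and 0.339 ± 0.260 RPKM with vehicle in adipogenic cells and 21.7 ± 3.57 RPKM with VD3 and 3.98 ± 0.142 RPKM with vehicle in osteogenic cells. Its ratio of means was 5.83 in adipogenic and 5.45 in osteogenic cells, and its difference of -1.01 ± 0.19 log2 (SE; adjusted p = 0.00469) was 0.001 log2 (adjusted p = 1) with a pseudocount of 0.1 RPKM. Its call was also lost with median-ratio rescaling, quantile normalization and background subtraction (-0.863 to -1.28 log2, adjusted p of 0.0695 to 0.211). Enpp1, Igfbp5 and Lrp5 rose in both fates, and their differences of 0.19, 0.022 and 0.029 log2 had an adjusted p of 0.945, 1 and 1.

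Mmp13 and Adamts1, proteases of the extracellular matrix, moved in opposite directions in the 2 fates. Mmp13, the collagenase that cleaves fibrillar collagens, was at 15.8, 17.5 and 18.001 RPKM with VD3, against 24.3, 27.9 and 26.2 RPKM with vehicle in adipogenic cells. Osteogenic libraries held 296, 343 and 255 RPKM with VD3, against 52.9, 52.9 and 38.2 RPKM with vehicle. Every adipogenic VD3 library lay below every adipogenic vehicle library, and every osteogenic VD3 library lay above every osteogenic vehicle library. The effects were -0.59 log2 (adjusted p = 0.0057) in adipogenic and 2.62 log2 (adjusted p = 2.44e-12) in osteogenic cells. Its difference of effects was -3.20 ± 0.17 log2 (SE; adjusted p = 7.07e-11). Adamts1, a secreted metalloprotease that cleaves proteoglycans, was at 41.0, 35.7 and 40.4 RPKM with VD3, against 78.2, 72.9 and 80.1 RPKM with vehicle in adipogenic cells and at 217, 239 and 309 RPKM with VD3, against 120.2, 122 and 117 RPKM with vehicle in osteogenic cells. It fell in adipogenic and rose in osteogenic cells with no overlap in either fate, with a difference of -2.03 ± 0.15 log2 (SE; adjusted p = 2.54e-08). Mmp3, stromelysin, was at 42.2, 55.0 and 42.2 RPKM with VD3, against 13.7, 14.2 and 10.3 RPKM with vehicle in osteogenic cells, while all 6 adipogenic libraries held at most 2.46 RPKM. Its difference was -1.81 ± 0.39 log2 (SE; adjusted p = 0.014). It was -1.94 log2 with an adjusted p of 0.243 at a pseudocount of 0.1, and had an adjusted p of 0.0735 in a fit on the 12 day 7 libraries alone. Timp3, an inhibitor of such proteases, did the reverse: it averaged 25.1 ± 1.34 RPKM with VD3 and 18.9 ± 0.489 RPKM with vehicle in adipogenic cells and 102 ± 5.03 RPKM with VD3 and 191 ± 10.9 RPKM with vehicle in osteogenic cells, with effects of 0.39 log2 in adipogenic and -0.89 log2 in osteogenic cells and a difference of 1.28 ± 0.12 log2 (SE; adjusted p = 1.42e-06). Plau, the urokinase activator of plasminogen, fell in both fates, with effects of -0.67 log2 in adipogenic and -1.43 log2 in osteogenic cells, and the call of its difference was lost with a pseudocount of 0.1, quantile normalization and background subtraction (0.357 to 0.568 log2, adjusted p of 0.137 to 0.441). In all, 3 of 21 tested proteases and inhibitors had a more positive and 4 a more negative effect in adipogenic cells, and the list's median difference was -0.194 log2, beside -0.006 over all genes. Over the alternatives these counts were 1 to 3 and 2 to 4. The shares over all genes were 0.967% and 0.853%.

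Kitl and Rgs16 also fell in adipogenic and rose in osteogenic cells. Kitl, the stem cell factor that binds the receptor Kit, was at 80.7, 76.9 and 81.1 RPKM with VD3, against 108, 117 and 113 RPKM with vehicle in adipogenic cells and at 37.6, 40.8 and 32.9 RPKM with VD3, against 18.1, 18.6 and 19.3 RPKM with vehicle in osteogenic cells. No VD3 library overlapped a vehicle library in either fate. Between fates the effects differed by -1.45 ± 0.11 log2 (SE; adjusted p = 2.66e-08). Rgs16, a regulator that ends G-protein signalling, was at 2.44, 1.59 and 2.75 RPKM with VD3, against 3.36, 3.68 and 4.62 RPKM with vehicle in adipogenic cells and at 21.2, 16.03 and 17.8 RPKM with VD3, against 10.5, 11.1 and 11.4 RPKM with vehicle in osteogenic cells. The Rgs16 effect was -0.59 log2 in adipogenic cells, with an adjusted p of 0.0454 that lay close to the threshold. In osteogenic cells it was 0.68 log2 (adjusted p = 0.00837). Between fates the effects differed by -1.27 ± 0.22 log2 (SE; adjusted p = 0.00173). After subtraction of a background level per library the difference was -1.64 log2, and that call was lost (adjusted p = 0.199). Among the 18 genes of opposite direction, these 2 with Mmp13 and Adamts1 were the 4 that fell in adipogenic cells, and 14 rose there and fell in osteogenic cells. The plot of library values for genes of more negative effect shows Mmp13, Adamts1 and Kitl beside genes that moved in 1 fate.

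**Figure D2:**
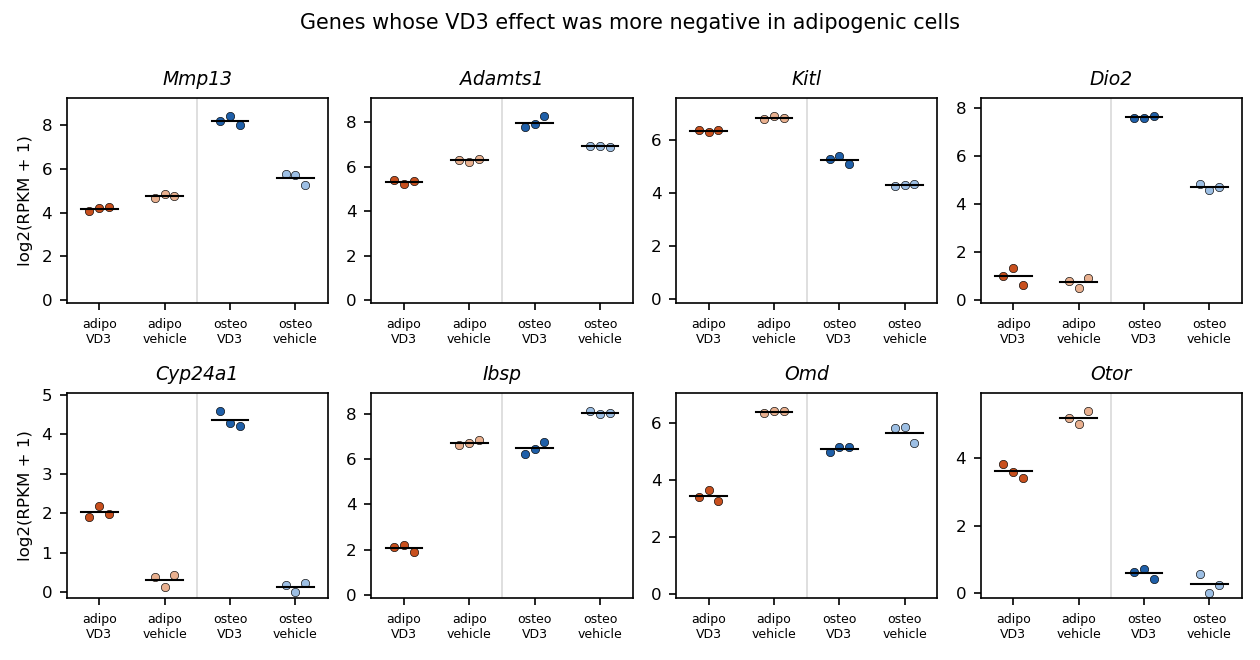
Level on log2(RPKM + 1) in each library of 8 genes whose VD3 effect was more negative in adipogenic cells; points are the 3 libraries of a group and lines their means, with adipogenic groups left of osteogenic groups and VD3 left of vehicle. Mmp13, Adamts1 and Kitl were lower with VD3 in adipogenic and higher in osteogenic cells, Ibsp and Omd were lower with VD3 in both, and Dio2 was near 1 RPKM in all adipogenic libraries.

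Dio2, Slpi, Gzme, Fam110c, F11r, Igfbp4 and Neat1 rose in osteogenic cells and had a lower VD3 effect in adipogenic cells. Dio2, the deiodinase that makes active thyroid hormone, was at 0.999, 1.51 and 0.515 RPKM with VD3, against 0.722, 0.421 and 0.859 RPKM with vehicle in adipogenic cells. Osteogenic libraries held 188, 191 and 201 RPKM with VD3, against 27.5, 22.8 and 25.1 RPKM with vehicle. The osteogenic VD3 libraries were far above all others. The difference came to -2.65 ± 0.21 log2 (SE; adjusted p = 1.17e-07). Slpi, a secreted inhibitor of leukocyte proteases, was at 14.1, 9.33 and 9.70 RPKM with VD3, against 0.335, 0 and 0.389 RPKM with vehicle in osteogenic cells and at no more than 0.538 RPKM in any adipogenic library, a difference of -2.92 ± 0.39 log2 (SE; adjusted p = 9.51e-05). Gzme, a granzyme, was at 6.43, 8.02 and 12.6 RPKM with VD3, against 9.78, 9.62 and 10.3 RPKM with vehicle in adipogenic cells, where the groups overlapped, and at 25.1, 29.2 and 44.3 RPKM with VD3, against 10.3, 6.66 and 7.19 RPKM with vehicle in osteogenic cells. Its difference was -2.05 ± 0.44 log2 (SE; adjusted p = 0.0155), and -1.94 log2 (adjusted p = 0.0527) without osteogenic vehicle replicate 2. Fam110c was at 39.2, 40.9 and 39.2 RPKM with VD3, against 49.5, 47.6 and 48.8 RPKM with vehicle in adipogenic cells, a difference of -0.28 log2 that did not pass (adjusted p = 0.434). In osteogenic cells it was at 17.0, 18.4 and 21.6 RPKM with VD3, against 5.62, 5.62 and 5.16 RPKM with vehicle. Adipogenic minus osteogenic, the effects differed by -1.91 ± 0.16 log2 (SE; adjusted p = 2.75e-07). F11r, a junctional adhesion molecule, averaged 9.92 ± 1.14 RPKM with VD3 and 14.3 ± 0.889 RPKM with vehicle in adipogenic cells and 9.06 ± 1.66 RPKM with VD3 and 3.04 ± 0.131 RPKM with vehicle in osteogenic cells. The difference came to -1.80 ± 0.20 log2 (SE; adjusted p = 8.99e-06). Igfbp4, which binds insulin-like growth factors, averaged 26.7 ± 0.948 RPKM with VD3 and 28.9 ± 3.37 RPKM with vehicle in adipogenic and 118 ± 16.3 RPKM with VD3 and 59.1 ± 2.99 RPKM with vehicle in osteogenic cells. Adipogenic minus osteogenic, the effects differed by -1.09 ± 0.16 log2 (SE; adjusted p = 0.000353). It was 1 of 2 members of the growth factor list (12 tested) with a passing difference. Both were more negative in adipogenic cells, beside 0.853% of all genes. The other was the insulin receptor Insr at -0.50 ± 0.12 log2 (SE; adjusted p = 0.0347), a call that was lost without any 1 of adipogenic VD3 replicates 1, 2 and 3, adipogenic vehicle replicates 1 and 2, osteogenic VD3 replicate 1 and osteogenic vehicle replicates 1, 2 and 3 (-0.426 to -0.517 log2, adjusted p of 0.0523 to 0.126), and with median-ratio rescaling, quantile normalization and background subtraction (adjusted p of 0.063 to 0.286). Neat1, the RNA scaffold of paraspeckles, averaged 152 ± 36.2 RPKM with VD3 and 206 ± 37.0 RPKM with vehicle in adipogenic and 88.1 ± 11.5 RPKM with VD3 and 50.0 ± 1.16 RPKM with vehicle in osteogenic cells. The difference between fates was -1.24 ± 0.23 log2 (SE; adjusted p = 0.00424).

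Ibsp, Omd and Postn, genes of bone matrix, fell in both fates and further in adipogenic cells. Ibsp, bone sialoprotein, was at 3.37, 3.54 and 2.77 RPKM with VD3, against 97.5, 102 and 113 RPKM with vehicle in adipogenic cells. In osteogenic cells it was at 74.7, 87.2 and 106 RPKM with VD3, against 278, 256 and 258 RPKM with vehicle. It fell in both fates without overlap, with effects of -4.64 log2 in adipogenic and -1.57 log2 in osteogenic cells. The difference between fates was -3.07 ± 0.15 log2 (SE; adjusted p = 1.69e-11). The ratio of VD3 to vehicle means was 0.0309 in adipogenic and 0.338 in osteogenic cells. Omd, the leucine-rich proteoglycan osteomodulin, was at 9.52, 11.5 and 8.60 RPKM with VD3, against 80.2, 84.3 and 85.0 RPKM with vehicle in adipogenic cells and at 30.7, 34.8 and 34.8 RPKM with VD3, against 56.2, 56.7 and 38.0 RPKM with vehicle in osteogenic cells. Its 2 effects were apart by -2.41 ± 0.21 log2 (SE; adjusted p = 4.2e-07). Again VD3 and vehicle libraries did not overlap in either fate. Postn, the matricellular protein periostin, averaged 36.6 ± 2.45 RPKM with VD3 and 98.6 ± 5.41 RPKM with vehicle in adipogenic cells and 75.4 ± 9.24 RPKM with VD3 and 118 ± 7.87 RPKM with vehicle in osteogenic cells. The 2 effects differed by -0.76 ± 0.14 log2 (SE; adjusted p = 0.0034), and by -0.742 log2 (adjusted p = 0.203) with median-ratio rescaling. Otor, a small secreted protein, was at 13.2, 10.998 and 9.63 RPKM with VD3, against 34.9, 30.8 and 40.9 RPKM with vehicle in adipogenic cells and at no more than 0.630 RPKM in any osteogenic library, so the comparison had little signal on the osteogenic side. Its difference was -1.89 ± 0.32 log2 (SE; adjusted p = 0.00144), and -2.86 log2 with an adjusted p of 0.184 at a pseudocount of 0.1.

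Of 20 tested osteoblast genes, 3 had a more negative effect in adipogenic cells (Ibsp, Omd and Postn) and 1 a more positive one. This was Col1a1, a chain of type I collagen, at 0.79 ± 0.20 log2 (SE; adjusted p = 0.038), and its call was lost without any 1 of adipogenic VD3 replicates 1 and 2, adipogenic vehicle replicates 1 and 3, osteogenic VD3 replicates 2 and 3 and osteogenic vehicle replicates 1 and 3 (0.638 to 0.805 log2, adjusted p of 0.0729 to 0.118), and with quantile normalization (0.569 log2, adjusted p = 0.287) or median-ratio rescaling (adjusted p = 0.1). Over the alternatives the counts were 2 to 3 more negative, the 2 with median-ratio rescaling, and 0 to 2 more positive. Among all genes, 0.853% had a more negative and 0.967% a more positive effect. The list's median difference was -0.12 log2. VD3 raised 2 and lowered 5 of the 20 in adipogenic cells, beside 1.51% and 0.574% of all genes. It raised 1 and lowered 4 in osteogenic cells, beside 2.91% and 2.35%. The count of 5 was 3 without adipogenic vehicle replicate 3 or adipogenic VD3 replicate 3. The count of 4 was 2 without any 1 of osteogenic vehicle replicates 1 and 2 and osteogenic VD3 replicates 2 and 3. Runx2, the master transcription factor of osteoblasts, averaged 1.33 ± 0.207 RPKM with VD3 and 2.38 ± 0.569 RPKM with vehicle in adipogenic and 7.70 ± 1.47 RPKM with VD3 and 7.62 ± 0.101 RPKM with vehicle in osteogenic cells. Its difference of effects was -0.53 ± 0.24 log2 (SE; adjusted p = 0.447). Alpl, the alkaline phosphatase of mineralizing cells, had a difference of -0.079 ± 0.22 log2 (SE; adjusted p = 1), and Dmp1, a phosphoprotein of osteocytes, of 0.43 ± 0.24 log2 (SE; adjusted p = 0.652). None of these 3 passed.

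Mineralization genes split. Mgp, matrix Gla protein, an inhibitor of calcification, was at 75.2, 115 and 89.4 RPKM with VD3, against 17.0, 14.0 and 10.3 RPKM with vehicle in adipogenic cells and at 813, 804 and 480.3 RPKM with VD3, against 343, 285 and 269 RPKM with vehicle in osteogenic cells. It rose in both fates without overlap, by 2.68 log2 in adipogenic and 1.19 log2 in osteogenic cells, a difference of 1.49 ± 0.27 log2 (SE; adjusted p = 0.00273). Fam20c, the kinase that phosphorylates secreted proteins, averaged 3.11 ± 0.516 RPKM with VD3 and 3.84 ± 0.573 RPKM with vehicle in adipogenic cells, where the groups overlapped, and 26.7 ± 1.04 RPKM with VD3 and 14.2 ± 2.82 RPKM with vehicle in osteogenic cells. Its difference was -1.12 ± 0.19 log2 (SE; adjusted p = 0.00173), and with background subtraction it was -1.31 log2 and the call was lost (adjusted p = 0.11). The endopeptidase Phex, which controls phosphate, averaged 0.637 ± 0.179 RPKM with VD3 and 0.894 ± 0.155 RPKM with vehicle in adipogenic and 11.1 ± 2.57 RPKM with VD3 and 26.1 ± 3.91 RPKM with vehicle in osteogenic cells. Its difference of 0.96 ± 0.24 log2 (SE; adjusted p = 0.0419) lost its call without any 1 of adipogenic VD3 replicates 1 and 2, adipogenic vehicle replicates 1, 2 and 3, osteogenic VD3 replicates 1 and 3 and osteogenic vehicle replicates 1, 2 and 3 (0.785 to 1.02 log2, adjusted p of 0.0507 to 0.143), and also with quantile normalization, a pseudocount of 0.1 and background subtraction (0.79 to 1.005 log2, adjusted p of 0.316 to 0.436). Of 13 tested mineralization genes, 2 had a more positive effect in adipogenic cells (Mgp and Phex) and 2 a more negative one (Enpp3 and Fam20c). Over the alternatives these counts were 1 to 2 and 0 to 2. The shares over all genes were 0.967% and 0.853%.

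Another set of genes rose in adipogenic cells and rose less, or did not pass, in osteogenic cells. Ttc39c was at 24.4, 19.1 and 19.2 RPKM with VD3, against 3.40, 3.82 and 4.57 RPKM with vehicle in adipogenic cells. In osteogenic cells it was at 7.06, 8.16 and 6.61 RPKM with VD3, against 7.51, 7.20 and 7.71 RPKM with vehicle. The adipogenic VD3 libraries were above all other libraries, and the difference was 2.19 ± 0.24 log2 (SE; adjusted p = 1.1e-05). Nes, the intermediate filament nestin, was at 6.13, 4.37 and 5.20 RPKM with VD3, against 0.672, 0.715 and 1.24 RPKM with vehicle in adipogenic cells and at 8.82, 8.84 and 11.9 RPKM with VD3, against 9.14, 10.1 and 11.02 RPKM with vehicle in osteogenic cells. Between fates the effects differed by 1.78 ± 0.20 log2 (SE; adjusted p = 1.29e-05). Every adipogenic VD3 library exceeded every adipogenic vehicle library but stayed below all osteogenic libraries. Elfn1, a membrane protein with leucine-rich repeats, averaged 6.12 ± 0.923 RPKM with VD3 and 0.554 ± 0.0515 RPKM with vehicle in adipogenic and 2.54 ± 0.228 RPKM with VD3 and 1.85 ± 0.328 RPKM with vehicle in osteogenic cells. The difference came to 1.87 ± 0.23 log2 (SE; adjusted p = 3.15e-05). Smoc2, a calcium-binding matricellular protein, was at 9.89, 10.6 and 10.3 RPKM with VD3, against 1.37, 0.893 and 1.60 RPKM with vehicle in adipogenic cells and at 30.5, 29.0 and 28.4 RPKM with VD3, against 17.2, 16.7 and 19.1 RPKM with vehicle in osteogenic cells. It rose in both fates, by 2.31 log2 in adipogenic and 0.70 log2 in osteogenic cells. Its 2 effects were apart by 1.61 ± 0.14 log2 (SE; adjusted p = 2.31e-07). Tm4sf1, a tetraspanin-like membrane protein, averaged 42.8 ± 8.45 RPKM with VD3 and 14.5 ± 0.811 RPKM with vehicle in adipogenic cells and 255 ± 27.8 RPKM with VD3 and 239 ± 48.8 RPKM with vehicle in osteogenic cells. Adipogenic minus osteogenic, the effects differed by 1.38 ± 0.19 log2 (SE; adjusted p = 0.00018). Ccl9, a chemokine, and Rgs2, a regulator that ends G-protein signalling, had differences of 1.35 ± 0.25 log2 (SE; adjusted p = 0.00401) and 1.32 ± 0.27 log2 (SE; adjusted p = 0.00829), and with background subtraction they were 1.43 log2 (adjusted p = 0.0533) and 1.44 log2 (adjusted p = 0.0538). Elovl6, an elongase of saturated fatty acids, averaged 8.997 ± 0.213 RPKM with VD3 and 3.46 ± 0.111 RPKM with vehicle in adipogenic cells and 13.7 ± 0.533 RPKM with VD3 and 14.7 ± 1.105 RPKM with vehicle in osteogenic cells. The difference between fates was 1.26 ± 0.13 log2 (SE; adjusted p = 3.68e-06). It was the 1 gene of 16 tested in the fatty acid and triglyceride synthesis list that passed, beside 1.82% of all genes.

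**Figure D3:**
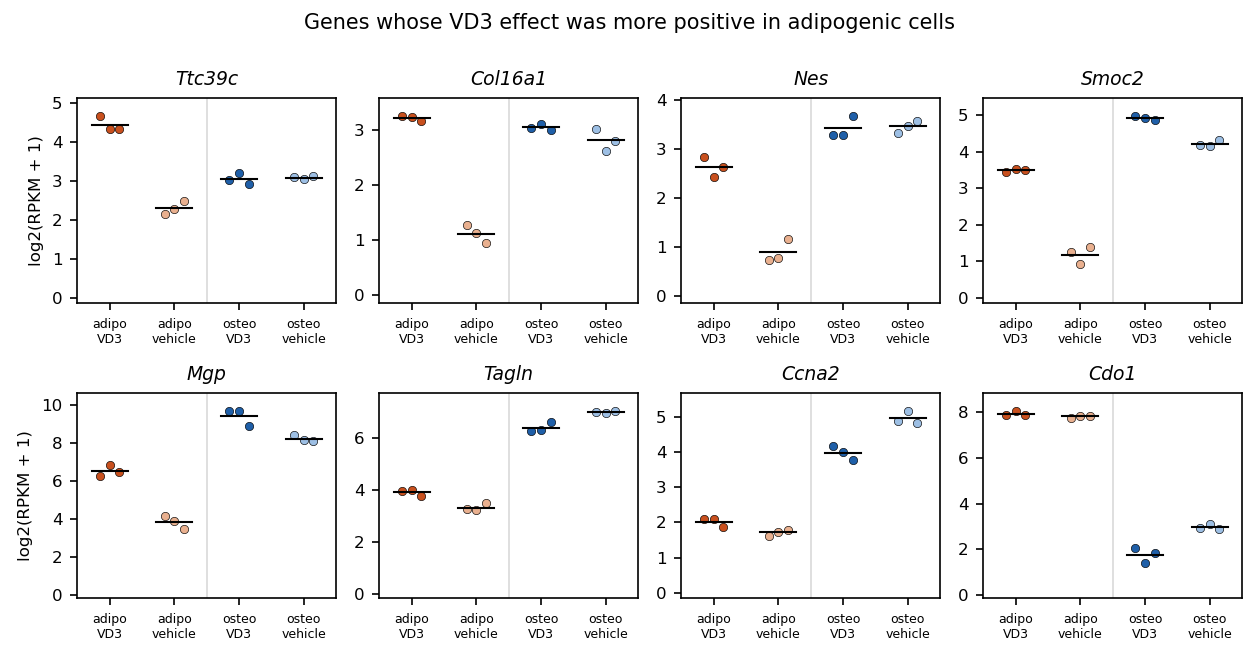
Level on log2(RPKM + 1) in each library of 8 genes whose VD3 effect was more positive in adipogenic cells; points are the 3 libraries of a group and lines their means, with adipogenic groups left of osteogenic groups and VD3 left of vehicle. Ttc39c, Col16a1 and Nes were higher with VD3 in adipogenic cells and overlapped in osteogenic cells, Smoc2 and Mgp were higher in both fates, Tagln was higher in adipogenic and lower in osteogenic cells, and Cdo1 was lower with VD3 in osteogenic cells.

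Structural matrix genes took part on both sides. Col16a1, a collagen that associates with fibrils, was at 8.65, 8.47 and 8.02 RPKM with VD3, against 1.42, 1.18 and 0.931 RPKM with vehicle in adipogenic cells and at 7.24, 7.65 and 7.08 RPKM with VD3, against 7.18, 5.14 and 5.998 RPKM with vehicle in osteogenic cells. The adipogenic groups were far apart, and the osteogenic groups overlapped. The 2 effects differed by 1.87 ± 0.17 log2 (SE; adjusted p = 4.2e-07). Fbn1, the microfibril protein fibrillin, averaged 10.5 ± 0.459 RPKM with VD3 and 4.98 ± 0.429 RPKM with vehicle in adipogenic and 162 ± 4.55 RPKM with VD3 and 170.0 ± 6.33 RPKM with vehicle in osteogenic cells. Its 2 effects were apart by 1.01 ± 0.11 log2 (SE; adjusted p = 5.62e-06). On the other side, Col12a1, another fibril-associated collagen, averaged 12.7 ± 0.513 RPKM with VD3 and 37.5 ± 5.09 RPKM with vehicle in adipogenic cells and 53.6 ± 6.30 RPKM with VD3 and 70.7 ± 5.09 RPKM with vehicle in osteogenic cells. The 2 effects differed by -1.08 ± 0.13 log2 (SE; adjusted p = 3.87e-05). Tnc and Thbs2, the matricellular proteins tenascin C and thrombospondin 2, fell in both fates and further in adipogenic cells, with differences of -0.65 ± 0.16 log2 (SE; adjusted p = 0.0372) and -0.51 ± 0.094 log2 (SE; adjusted p = 0.0034). With median-ratio rescaling these were -0.643 log2 (adjusted p = 0.0758) and -0.488 log2 (adjusted p = 0.433). The call of Tnc was also lost with background subtraction (-0.895 log2, adjusted p = 0.272) and without any 1 of adipogenic VD3 replicates 2 and 3, adipogenic vehicle replicates 2 and 3, osteogenic VD3 replicate 3 and osteogenic vehicle replicates 1 and 2 (-0.546 to -0.633 log2, adjusted p of 0.0828 to 0.104). Fn1, fibronectin, averaged 25.7 ± 2.45 RPKM with VD3 and 26.1 ± 9.22 RPKM with vehicle in adipogenic cells, where the groups overlapped, and 431 ± 43.2 RPKM with VD3 and 221 ± 15.3 RPKM with vehicle in osteogenic cells, a difference of -0.93 ± 0.20 log2 (SE; adjusted p = 0.0151). That call was lost without adipogenic VD3 replicate 2 (-0.868 log2, adjusted p = 0.0529), with median-ratio rescaling (-0.908 log2, adjusted p = 0.118) and in the fit on the 12 libraries (adjusted p = 0.0883). Among 23 tested genes of the fibrillar and associated matrix, 2 had a more positive effect in adipogenic cells (Fbn1 and Col1a1) and 5 a more negative one (Col12a1, Fn1, Postn, Tnc and Thbs2). The count of 5 was 3 without adipogenic VD3 replicate 2 and 1 with median-ratio rescaling. Among all genes, 0.967% had a more positive and 0.853% a more negative effect. In each fate 7 of the 23 fell, beside 0.574% of all genes in adipogenic and 2.35% in osteogenic cells. Another 3 rose in adipogenic and 2 in osteogenic cells, beside 1.51% and 2.91%.

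Genes of the cell cycle fell in osteogenic cells. Ccna2, cyclin A2, was at 3.25, 3.25 and 2.65 RPKM with VD3, against 2.08, 2.34 and 2.48 RPKM with vehicle in adipogenic cells and at 16.8, 14.8 and 12.5 RPKM with VD3, against 28.2, 34.8 and 27.2 RPKM with vehicle in osteogenic cells. The osteogenic VD3 libraries were all below the vehicle ones, whereas the adipogenic VD3 libraries were all above theirs by an amount that did not pass (0.29 log2, adjusted p = 0.44). Its difference of effects was 1.28 ± 0.17 log2 (SE; adjusted p = 9.51e-05). Cdk1, the kinase that drives mitosis, averaged 4.13 ± 0.894 RPKM with VD3 and 3.80 ± 0.616 RPKM with vehicle in adipogenic and 8.72 ± 0.338 RPKM with VD3 and 17.0 ± 2.71 RPKM with vehicle in osteogenic cells. Its difference of effects was 0.97 ± 0.18 log2 (SE; adjusted p = 0.00368). Mcm6, a subunit of the replicative helicase, averaged 4.98 ± 0.197 RPKM with VD3 and 5.19 ± 0.262 RPKM with vehicle in adipogenic and 14.0 ± 2.46 RPKM with VD3 and 25.8 ± 0.977 RPKM with vehicle in osteogenic cells. Between fates the effects differed by 0.81 ± 0.14 log2 (SE; adjusted p = 0.00174). Of 26 tested proliferation genes, 21 fell in osteogenic cells and 1 in adipogenic cells, beside 2.35% and 0.574% of all genes. In either fate 0 rose, where 2.91% and 1.51% of all genes did. The difference passed for 5 of the 26, all more positive in adipogenic cells, beside 0.967% of all genes. The list's median effect was -0.139 log2 in adipogenic and -0.735 log2 in osteogenic cells, beside 0.05 and 0.067 over all genes. With background subtraction 8 rather than 21 fell in osteogenic cells, and 4 rather than 5 differences passed. Shcbp1, a protein of dividing cells, averaged 1.503 ± 0.472 RPKM with VD3 and 1.11 ± 0.443 RPKM with vehicle in adipogenic and 3.69 ± 0.115 RPKM with VD3 and 8.75 ± 0.665 RPKM with vehicle in osteogenic cells. The difference came to 1.31 ± 0.25 log2 (SE; adjusted p = 0.00536), and with background subtraction it was 1.35 log2 and the call was lost (adjusted p = 0.188).

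Histone cluster genes, taken as all symbols that start with Hist, moved with them. Replication-dependent histone transcripts carry no poly(A) tail and are kept by ribosomal depletion, but the set was not limited to such genes. Of 61 tested histone cluster genes, 43 fell in osteogenic cells and 1 in adipogenic cells, beside 2.35% and 0.574% of all genes. The difference passed for 18, all more positive in adipogenic cells, beside 0.967% of all genes. Its median over the 61 was 0.619 log2. That group was defined after its values were seen, its members share near-identical sequences that the counting could split, and the count of 18 was 10 without adipogenic VD3 replicate 3 or with median-ratio rescaling and 11 without osteogenic VD3 replicate 3.

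Genes of cholesterol synthesis and uptake also fell in osteogenic cells. There 10 of 16 tested fell, beside 2.35% of all genes. In adipogenic cells limma called 0 in either direction, with 3 at an unadjusted p below 0.05, where it called 2.08% of all genes. Median effects were -0.058 log2 in adipogenic and -0.443 log2 in osteogenic cells. Fdft1, squalene synthase, was at 32.0, 33.9 and 36.8 RPKM with VD3, against 26.4, 24.6 and 28.3 RPKM with vehicle in adipogenic cells and at 33.1, 40.3 and 43.0 RPKM with VD3, against 56.5, 44.0 and 60.4 RPKM with vehicle in osteogenic cells. It fell in osteogenic cells, and its value of 0.36 log2 in adipogenic cells did not pass (adjusted p = 0.154). Between fates the effects differed by 0.81 ± 0.16 log2 (SE; adjusted p = 0.00673). Fdps, farnesyl diphosphate synthase, averaged 26.2 ± 1.68 RPKM with VD3 and 27.5 ± 3.12 RPKM with vehicle in adipogenic and 23.1 ± 2.64 RPKM with VD3 and 41.3 ± 2.77 RPKM with vehicle in osteogenic cells. Its difference of 0.75 ± 0.17 log2 (SE; adjusted p = 0.0154) was 0.66 to 0.705 log2 (adjusted p = 0.0523 to 0.0605) without any 1 of osteogenic VD3 replicate 1, adipogenic vehicle replicate 2 and adipogenic VD3 replicate 2. In all 5 of the 16 differences passed, each more positive in adipogenic cells (among them Fdft1, Fdps, Hsd17b7 and Cyp51), beside 0.967% of all genes. That count was 1 without adipogenic VD3 replicate 2, 2 without any 1 of adipogenic VD3 replicate 3, adipogenic vehicle replicate 2, osteogenic VD3 replicate 1 and osteogenic vehicle replicate 1, and 3 without adipogenic vehicle replicate 1 or 3. With either rescaling (median ratio or quantile) it was 2, and after background subtraction 3. Cdo1, the dioxygenase that degrades cysteine, and Car3, carbonic anhydrase 3, fell in osteogenic cells as well. Cdo1 averaged 244 ± 18.2 RPKM with VD3 and 224 ± 7.37 RPKM with vehicle in adipogenic and 2.46 ± 0.763 RPKM with VD3 and 6.85 ± 0.667 RPKM with vehicle in osteogenic cells. Adipogenic minus osteogenic, the effects differed by 1.33 ± 0.26 log2 (SE; adjusted p = 0.00562). Car3 averaged 259 ± 27.4 RPKM with VD3 and 238 ± 8.397 RPKM with vehicle in adipogenic and 17.4 ± 1.60 RPKM with VD3 and 41.4 ± 7.44 RPKM with vehicle in osteogenic cells. The difference between fates was 1.31 ± 0.22 log2 (SE; adjusted p = 0.00114). With background subtraction the differences were 1.47 log2 (adjusted p = 0.129) for Cdo1 and 1.34 log2 (adjusted p = 0.127) for Car3, and with quantile normalization that of Cdo1 was 1.19 log2 (adjusted p = 0.072).

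Tagln, Myl9, Acta2 and Csrp1, genes of the contractile and actin cytoskeleton, rose in adipogenic and fell in osteogenic cells. Tagln, the actin-binding transgelin, was at 14.8, 15.0 and 12.7 RPKM with VD3, against 8.60, 8.44 and 10.3 RPKM with vehicle in adipogenic cells and at 75.4, 77.4 and 97.2 RPKM with VD3, against 127, 125.003 and 131 RPKM with vehicle in osteogenic cells. Myl9, a myosin light chain, was at 67.7, 65.8 and 77.9 RPKM with VD3, against 38.1, 42.3 and 43.9 RPKM with vehicle in adipogenic cells and at 342, 313 and 303 RPKM with VD3, against 472, 404 and 463 RPKM with vehicle in osteogenic cells. Acta2, smooth muscle actin, was at 131, 138 and 135 RPKM with VD3, against 84.4, 88.3 and 79.8 RPKM with vehicle in adipogenic cells and at 766, 705 and 697 RPKM with VD3, against 897, 905 and 996 RPKM with vehicle in osteogenic cells. For all 3, VD3 libraries lay above vehicle libraries in adipogenic cells and below them in osteogenic cells, with no overlap in either. The differences were 1.20 ± 0.17 log2 (SE; adjusted p = 0.000149) for Tagln, 1.23 ± 0.12 log2 (SE; adjusted p = 1.93e-06) for Myl9 and 1.04 ± 0.10 log2 (SE; adjusted p = 2.1e-06) for Acta2. Csrp1, a LIM-domain protein of actin bundles, averaged 55.2 ± 1.69 RPKM with VD3 and 34.2 ± 2.81 RPKM with vehicle in adipogenic and 176 ± 4.22 RPKM with VD3 and 250.2 ± 29.7 RPKM with vehicle in osteogenic cells. Its 2 effects were apart by 1.18 ± 0.14 log2 (SE; adjusted p = 2.85e-05). Each of these 4 kept its sign and its call in every alternative run. Of 10 tested smooth muscle and pericyte markers, 3 had a more positive effect in adipogenic cells (these 3) and 0 a more negative one. The shares over all genes were 0.967% and 0.853%. In adipogenic cells 3 rose and 0 fell, beside 1.51% and 0.574% of all genes. In osteogenic cells 1 rose and 3 fell, beside 2.91% and 2.35%. The list's medians were 0.205 log2 in adipogenic and -0.355 log2 in osteogenic cells. The summed RPKM of the 4 defining smooth muscle markers (Acta2, Cnn1, Des and Myh11) was 143 to 148 in adipogenic VD3 and 88.2 to 96.6 in adipogenic vehicle libraries, against 710.3 to 784 in osteogenic VD3 and 918 to 1019 in osteogenic vehicle libraries. Of these, Myh11, the smooth muscle myosin, did not exceed 2.07 RPKM in any of the 12 libraries and Des, desmin, did not exceed 7.16 RPKM. The part that a change in the share of such cells had in the result was not tested.

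Promoter sequences of the 384 genes were searched because these 4 moved together. RefSeq promoters of the GRCm38.p6 build, which is not the mm9 build of the deposited values, were matched by symbol for 240 of the 384 genes, and a 10-base CArG box, the binding motif of serum response factor, was searched on both strands of the 250 bases before the start. Only the exact form was counted: CC, a core of A and T alone, then GG. This form was found in 1.47% of all 32851 promoters and for 1.62% of the 27025 genes with a promoter. Among the genes of more positive effect in adipogenic cells it was found for 8 of 118 (6.78%), and among those of more negative effect for 1 of 122 (0.82%). The 8 genes were Myl9, Actg1, Cnn2, Vcl, Fhl1, Fhl2, Glipr2 and the predicted Gm10471. Of the 4 genes that prompted the search, Myl9 had a box, Acta2 and Csrp1 had no exact match in this window and Tagln was not matched. Boxes with a G or C in the core were not searched for, so Acta2 and Csrp1 may hold such a box. Of the 7 smooth muscle and pericyte markers with a promoter, 1 had a box (14.3%). The motif was picked after the values were seen, and a match is not a binding site. The stretches around the box of 4 actin cytoskeleton genes are shown 5′ to 3′ on each gene's own strand, with the box in capitals.
Myl9: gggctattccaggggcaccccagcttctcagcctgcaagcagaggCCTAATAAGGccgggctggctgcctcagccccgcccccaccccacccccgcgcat
Actg1: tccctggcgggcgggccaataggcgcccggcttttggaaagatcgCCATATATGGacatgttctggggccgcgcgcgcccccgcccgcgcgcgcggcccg
Cnn2: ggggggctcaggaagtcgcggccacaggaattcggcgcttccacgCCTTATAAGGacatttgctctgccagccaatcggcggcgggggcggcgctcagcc
Vcl: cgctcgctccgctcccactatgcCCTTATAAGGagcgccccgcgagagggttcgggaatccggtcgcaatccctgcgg
They lie at chr2:156775258-156775357 (plus strand), chr11:120348531-120348630 (minus strand), chr10:79988499-79988598 (plus strand) and chr14:20929148-20929225 (plus strand), with the first base of the box at -161, -90, -56 and -227 from the start. Actg1, the cytoplasmic gamma actin, averaged 174 ± 22.6 RPKM with VD3 and 164 ± 12.8 RPKM with vehicle in adipogenic and 514 ± 25.5 RPKM with VD3 and 805 ± 65.4 RPKM with vehicle in osteogenic cells. The 2 effects differed by 0.72 ± 0.16 log2 (SE; adjusted p = 0.0166), a call that was lost with median-ratio rescaling (0.746 log2, adjusted p = 0.11), quantile normalization (0.595 log2, adjusted p = 0.0572) and without any 1 of adipogenic VD3 replicate 2, adipogenic vehicle replicate 1 and osteogenic vehicle replicate 2 (0.623 to 0.677 log2, adjusted p of 0.0535 to 0.0639). Vcl, the adhesion protein vinculin, averaged 49.4 ± 2.49 RPKM with VD3 and 43.0 ± 3.67 RPKM with vehicle in adipogenic and 66.3 ± 4.65 RPKM with VD3 and 94.7 ± 2.104 RPKM with vehicle in osteogenic cells. Its difference of effects was 0.71 ± 0.10 log2 (SE; adjusted p = 0.00033). Cnn2, a calponin, averaged 35.1 ± 5.05 RPKM with VD3 and 25.4 ± 1.41 RPKM with vehicle in adipogenic and 204 ± 29.7 RPKM with VD3 and 238 ± 12.5 RPKM with vehicle in osteogenic cells. Between fates the effects differed by 0.68 ± 0.14 log2 (SE; adjusted p = 0.0107), and by 0.482 log2 (adjusted p = 0.148) with quantile normalization. In the fit on the 12 libraries that adjusted p was 0.0649. Actg1 and Vcl fell in osteogenic cells, and Cnn2 rose in adipogenic cells. The direct repeat with a spacer of 3 (DR3), the motif of the Vdr and Rxra heterodimer, was found in 13 of the 32851 promoters (0.0396%) and for 0 of the 240 matched genes, which says only that these letters are not in these windows.

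Among 21 tested adipocyte genes 0 passed in adipogenic cells, which is near the 2.08% of all genes that passed there. In osteogenic cells 4 rose, beside 2.91% of all genes. With the filter that asked for an average of 1 RPKM in each fate, 5 of 10 rose there, beside 713 of 11390 genes. Lpl, the lipase that frees fatty acids from circulating triglyceride, was at 1749.6, 1689 and 1770.1 RPKM with VD3, against 1892, 2113 and 1793 RPKM with vehicle in adipogenic cells and at 153, 145 and 139 RPKM with VD3, against 87.7, 82.2 and 81.6 RPKM with vehicle in osteogenic cells. The osteogenic VD3 libraries were above their vehicle libraries, and the adipogenic VD3 libraries were below theirs by an amount that did not pass (-0.15 log2, adjusted p = 0.765). The difference was -0.94 ± 0.11 log2 (SE; adjusted p = 2.85e-05). Plin2, a coat protein of lipid droplets, averaged 1021 ± 74.1 RPKM with VD3 and 1170.4 ± 43.5 RPKM with vehicle in adipogenic and 116 ± 13.7 RPKM with VD3 and 88.2 ± 6.21 RPKM with vehicle in osteogenic cells. The difference came to -0.59 ± 0.12 log2 (SE; adjusted p = 0.012). That call was lost with median-ratio rescaling (-0.565 log2, adjusted p = 0.375) and in the fit on the 12 libraries (adjusted p = 0.0649). Cebpa, a transcription factor of adipocyte differentiation, averaged 108 ± 2.98 RPKM with VD3 and 157 ± 15.0 RPKM with vehicle in adipogenic and 29.9 ± 3.12 RPKM with VD3 and 20.7 ± 4.59 RPKM with vehicle in osteogenic cells. Neither effect passed alone (-0.53 log2, adjusted p = 0.115, and 0.52 log2, adjusted p = 0.06), and the difference did, at -1.06 ± 0.23 log2 (SE; adjusted p = 0.0126). These were the 3 of 21 tested adipocyte genes with a passing difference, beside 1.82% of all genes. All 3 were more negative in adipogenic cells, and 2 passed with median-ratio rescaling. In adipogenic cells limma called 0 of the 21 in either direction, with 3 at an unadjusted p below 0.05, and in osteogenic cells 4 rose and 0 fell, or 2 rose without osteogenic vehicle replicate 2. Pparg, the nuclear receptor that drives adipogenesis, had a difference of -0.11 ± 0.15 log2 (SE; adjusted p = 1), Cebpb of -1.03 ± 0.36 log2 (SE; adjusted p = 0.211), Fabp4, the fatty acid carrier, of -0.24 ± 0.25 log2 (SE; adjusted p = 0.981) and the hormone gene Adipoq of 0.36 ± 0.18 log2 (SE; adjusted p = 0.54). None of these 4 passed, though Cebpb did when the day 0 libraries were left out of the fit (adjusted p = 0.0038).

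Klf9, a transcription factor that glucocorticoids and other nuclear receptors induce, averaged 88.7 ± 1.98 RPKM with VD3 and 84.6 ± 5.13 RPKM with vehicle in adipogenic cells, whose medium holds dexamethasone, and 86.1 ± 5.86 RPKM with VD3 and 47.4 ± 4.496 RPKM with vehicle in osteogenic cells. The osteogenic VD3 mean was close to both adipogenic means. Medium and fate cannot be told apart in this design, and the part of dexamethasone was not tested. The difference came to -0.78 ± 0.12 log2 (SE; adjusted p = 0.000825), and with median-ratio rescaling it was -0.76 log2 and the call was lost (adjusted p = 0.0693). Tsc22d3, a glucocorticoid-induced leucine zipper protein, averaged 73.8 ± 7.5001 RPKM with VD3 and 163 ± 12.9 RPKM with vehicle in adipogenic and 28.9 ± 5.81 RPKM with VD3 and 37.1 ± 3.55 RPKM with vehicle in osteogenic cells. Its difference of -0.77 ± 0.17 log2 (SE; adjusted p = 0.0193) lost the call, at -0.67 to -0.75 log2, without any 1 of adipogenic VD3 replicate 2, adipogenic vehicle replicates 1 and 3, osteogenic VD3 replicates 2 and 3 and osteogenic vehicle replicate 2. With median-ratio rescaling it was also lost (-0.749 log2, adjusted p = 0.171). These were the 2 of 13 tested glucocorticoid-responsive genes that passed, beside 1.82% of all genes. Both were more negative in adipogenic cells, and with that rescaling limma called 0 of the 13.

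Some signalling genes of the Wnt and BMP pathways fell in adipogenic cells and did not pass in osteogenic cells. Wisp2, a secreted CCN protein, was at 19.2, 17.0 and 18.9 RPKM with VD3, against 40.8, 35.3 and 44.4 RPKM with vehicle in adipogenic cells and at 97.4, 107 and 124 RPKM with VD3, against 112, 99.4 and 120.2 RPKM with vehicle in osteogenic cells, where the groups overlapped. Adipogenic minus osteogenic, the effects differed by -1.07 ± 0.17 log2 (SE; adjusted p = 0.000855). Rspo2, which strengthens Wnt signals, averaged 2.12 ± 0.130 RPKM with VD3 and 4.21 ± 0.634 RPKM with vehicle in adipogenic and 29.2 ± 0.639 RPKM with VD3 and 25.5 ± 2.06 RPKM with vehicle in osteogenic cells. Adipogenic minus osteogenic, the effects differed by -0.92 ± 0.13 log2 (SE; adjusted p = 0.000191). Sfrp2, a secreted Wnt antagonist, averaged 2.94 ± 0.502 RPKM with VD3 and 7.04 ± 0.216 RPKM with vehicle in adipogenic and 13.4 ± 2.28 RPKM with VD3 and 13.8 ± 1.42 RPKM with vehicle in osteogenic cells. The difference between fates was -0.99 ± 0.18 log2 (SE; adjusted p = 0.00366), and with background subtraction it was -1.27 log2 and the call was lost (adjusted p = 0.12). The ligand Wnt5a, by contrast, rose in osteogenic cells, averaging 10.2 ± 0.507 RPKM with VD3 and 10.4 ± 0.248 RPKM with vehicle in adipogenic and 35.4 ± 1.08 RPKM with VD3 and 24.4 ± 1.69 RPKM with vehicle in osteogenic cells. Its 2 effects were apart by -0.56 ± 0.12 log2 (SE; adjusted p = 0.00978), a call that was lost with median-ratio rescaling (-0.531 log2, adjusted p = 0.285) and background subtraction (-0.595 log2, adjusted p = 0.0629). Of 18 tested Wnt genes 4 had a more negative effect in adipogenic cells and 1 a more positive one (Sfrp4 at 0.68 ± 0.17 log2 (SE; adjusted p = 0.038)). Over the alternatives these counts were 2 to 4 and 0 to 1. The shares over all genes were 0.853% and 0.967%. Sfrp4, a secreted Wnt antagonist, averaged 0.746 ± 0.0963 RPKM with VD3 and 0.194 ± 0.0868 RPKM with vehicle in adipogenic cells and 59.9 ± 7.99 RPKM with VD3 and 65.5 ± 5.65 RPKM with vehicle in osteogenic cells. Its difference was 0.231 log2 (adjusted p = 0.989) with background subtraction, 0.563 log2 (adjusted p = 0.567) with quantile normalization and 1.69 log2 (adjusted p = 0.000248) with a pseudocount of 0.1. The call of Sfrp4 was lost without any 1 of adipogenic VD3 replicates 1, 2 and 3, adipogenic vehicle replicates 2 and 3, osteogenic VD3 replicate 3 and osteogenic vehicle replicates 1 and 2 (0.567 to 0.712 log2, adjusted p of 0.0589 to 0.119). Id1, an inhibitor of basic helix-loop-helix factors that BMP signals induce, was at 3.21, 4.19 and 3.45 RPKM with VD3, against 11.2, 7.98 and 10.3 RPKM with vehicle in adipogenic cells and at 8.63, 8.01 and 7.54 RPKM with VD3, against 7.09, 4.13 and 7.47 RPKM with vehicle in osteogenic cells. It fell in adipogenic cells, and its osteogenic effect did not pass (0.36 log2, adjusted p = 0.418). The difference between fates was -1.58 ± 0.27 log2 (SE; adjusted p = 0.00172). Id2, a relative, went the other way with a difference of 1.11 ± 0.28 log2 (SE; adjusted p = 0.038) that lost its call without any 1 of adipogenic VD3 replicates 1 and 2, adipogenic vehicle replicates 1, 2 and 3, osteogenic VD3 replicates 1, 2 and 3 and osteogenic vehicle replicates 1 and 3 (0.963 to 1.15 log2, adjusted p of 0.0642 to 0.113), and with quantile normalization (1.06 log2, adjusted p = 0.137) and background subtraction (1.203 log2, adjusted p = 0.315). Id4 had a difference of -1.47 ± 0.35 log2 (SE; adjusted p = 0.0262), which was -2.41 log2 (adjusted p = 0.201) with a pseudocount of 0.1 and lost its call without any 1 of adipogenic VD3 replicate 2, adipogenic vehicle replicates 2 and 3, osteogenic VD3 replicate 1 and osteogenic vehicle replicate 2 (-1.23 to -1.48 log2, adjusted p of 0.0589 to 0.0919). Tgfbr2, a receptor of transforming growth factor beta, averaged 18.2 ± 2.02 RPKM with VD3 and 9.64 ± 0.7999 RPKM with vehicle in adipogenic and 42.8 ± 4.71 RPKM with VD3 and 38.1 ± 1.71 RPKM with vehicle in osteogenic cells. The 2 effects differed by 0.69 ± 0.14 log2 (SE; adjusted p = 0.00637), and by 0.723 log2 (adjusted p = 0.0758) with median-ratio rescaling. The ligand Tgfb3 fell in osteogenic cells, averaging 9.91 ± 1.42 RPKM with VD3 and 8.32 ± 0.727 RPKM with vehicle in adipogenic and 63.3 ± 1.79 RPKM with VD3 and 84.9 ± 5.41 RPKM with vehicle in osteogenic cells. Its difference of effects was 0.64 ± 0.13 log2 (SE; adjusted p = 0.00731), with an adjusted p of 0.12 after median-ratio rescaling and 0.0546 after quantile normalization. In all, 3 of 22 tested BMP and TGF-beta genes had a more positive and 2 a more negative effect in adipogenic cells. The shares over all genes were 0.967% and 0.853%. The count of 3 was 1 with quantile normalization and 1 with median-ratio rescaling. The count of 2 was 1 without any 1 of adipogenic VD3 replicate 2, adipogenic vehicle replicates 2 and 3, osteogenic VD3 replicate 1 and osteogenic vehicle replicate 2.

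**Figure D4:**
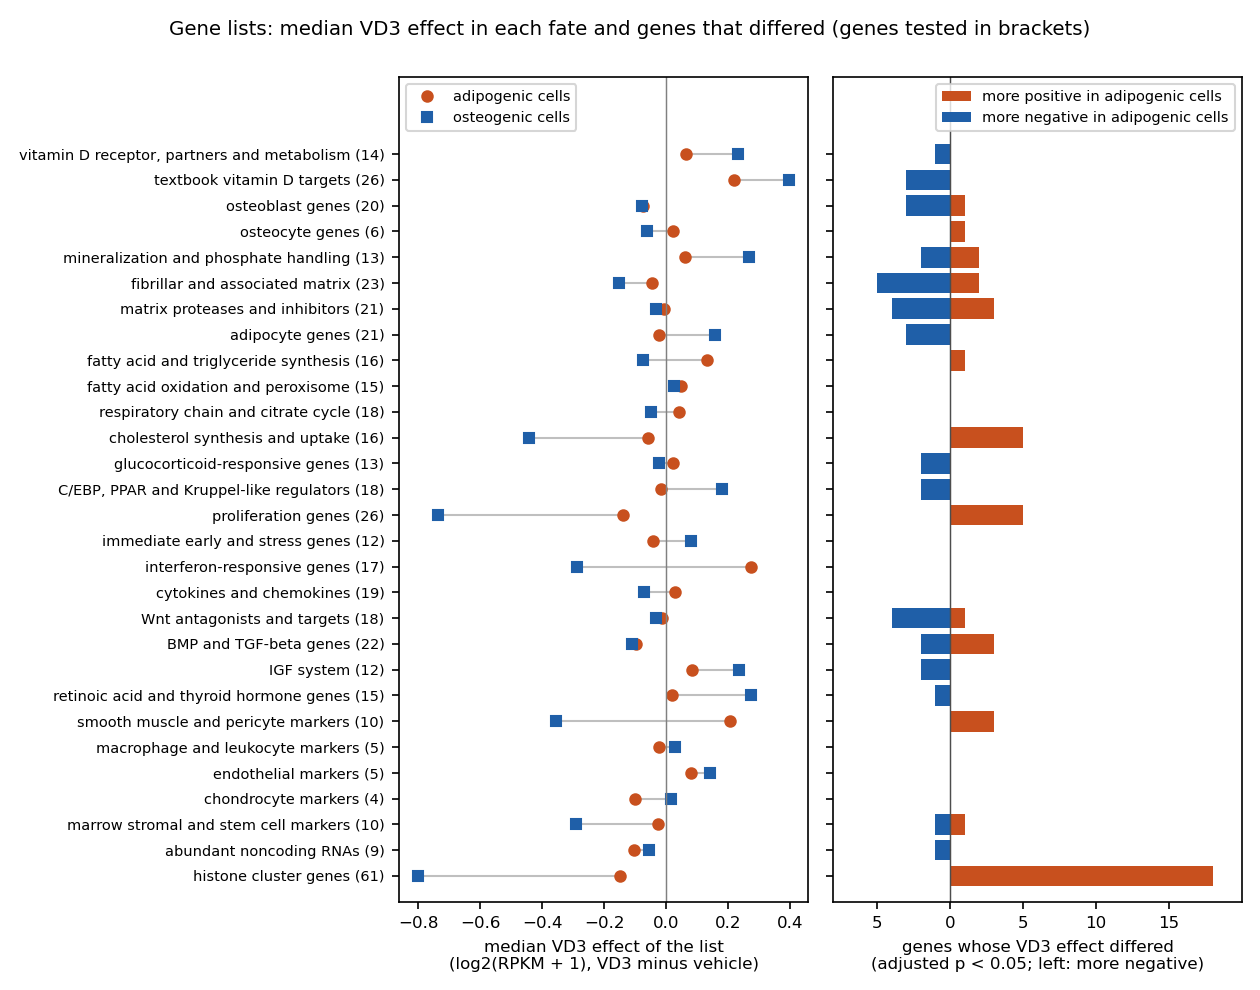
Left, median VD3 effect on log2(RPKM + 1) of each gene list in adipogenic cells (circles) and osteogenic cells (squares); right, number of list genes whose VD3 effect differed, bars to the left for effects more negative and to the right for effects more positive in adipogenic cells. Proliferation and histone cluster genes had medians of -0.735 and -0.801 in osteogenic cells, beside 0.067 over all genes, and numbers in brackets are genes tested.

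The plot of list medians shows all 28 lists from general knowledge and the histone genes. In 8 lists 0 genes had a passing difference: fatty acid oxidation, the respiratory chain and citrate cycle, immediate early and stress genes, interferon-responsive genes, cytokines and chemokines, and markers of leukocytes, endothelium and cartilage. Over all genes 1.82% had a passing difference, so a count of 0 in lists this short is near that share. Of the 95 tested genes of these 8 lists, 20 had an unadjusted p below 0.05 for the difference. Over all 21097 genes tested, 2147 did. Interferon-responsive genes had medians of 0.275 log2 in adipogenic and -0.286 log2 in osteogenic cells, and limma called 0 of 17 in either fate or in the difference. At an unadjusted p below 0.05 there were 2 in adipogenic cells, 4 in osteogenic cells and 4 in the difference. Marker sums of other cell types were low: 7 leukocyte markers summed to 2.97 to 3.24 RPKM in adipogenic VD3, 4.16 to 6.59 in adipogenic vehicle, 1.71 to 4.05 in osteogenic VD3 and 1.75 to 2.31 in osteogenic vehicle libraries. Lyz2, the lysozyme of macrophages, made up most of the gap between the adipogenic groups, with 0.763 ± 0.145 RPKM with VD3 and 2.92 ± 0.962 RPKM with vehicle (SD, n = 3 each).

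The genes were then read at day 0 and day 15, whose VD3 effects did not choose them, although those libraries entered the filter on low values and the estimate of the spread. A fit on the 12 day 7 libraries alone called 282 differences, 257 of them among the 384. Of the 216 genes called in osteogenic cells alone at day 7, 195 (90.3%) had a VD3 effect of the same sign in osteogenic cells at day 15. The share was 86.4% of all 1110 genes called in osteogenic cells at day 7 and 60.0% of all genes tested. At day 15, where VD3 changed 163 genes (0.773% of those tested; 0.526% rose and 0.246% fell), 37 of the 216 passed in the same direction and 0 in the opposite one. Among all 1110 genes these counts were 146 and 0. The 37 included Dio2 at 2.57 log2 (adjusted p = 6.56e-10) and Slpi at 1.84 log2 (adjusted p = 0.000493). For 214 of the 216 genes the effect was smaller at day 15 than at day 7, the day that chose them, as the plot of the 216 genes shows. Car3 had a value of 0.39 log2 (adjusted p = 0.59) there, of the opposite sign. In undifferentiated cells at day 0, where VD3 changed 3168 genes (15.0%; 3.98% rose and 11% fell), 149 of the 216 passed in the same direction and 3 in the opposite one. Among the 1110 genes these counts were 665 and 9. Day 0 VD3 replicate 2 stood apart from the other 5 day 0 libraries, with a median sensory receptor level of 0.46 RPKM where they had 3.39 to 4.95 RPKM. Without it VD3 changed 1522 genes (7.21%; 2.81% rose and 4.4% fell), and 124 of the 216 passed in the same direction and 2 in the opposite one, beside 563 and 3 of the 1110. Of the 84 genes called in adipogenic cells alone, 37 passed in the same direction at day 0 and 7 in the opposite one. Without that library these were 30 and 5. At day 15 of osteogenic culture 0 passed in the same direction and 1 in the opposite one. Among all 439 genes called in adipogenic cells, 285 and 20 did so at day 0, 254 and 15 without that library, and 81 and 6 at day 15. The 84 genes were chosen as not called in osteogenic cells at day 7, which bears on their day 15 counts.

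**Figure D5:**
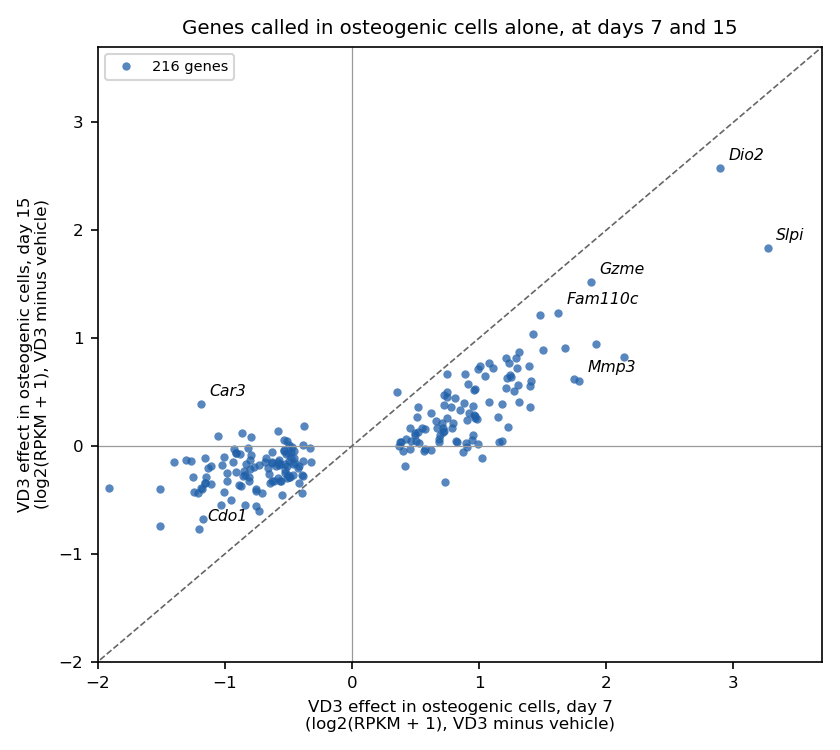
VD3 effect of the 216 genes called in osteogenic cells alone at day 7 (horizontal) and in osteogenic cells at day 15 (vertical), each on log2(RPKM + 1) with 3 libraries a group; the dashed line marks equal effects. Of the 216, 195 had the same sign at both days, and 214 lie closer to 0 at day 15.

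The genes of opposite direction were also read at day 0 and day 15. Mmp13 rose in both, by 3.87 log2 (adjusted p = 2.03e-15) at day 0 and 1.21 log2 (adjusted p = 2.48e-06) at day 15, so that adipogenic cells were the 1 state of 4 in which it fell. Kitl rose at day 15 by 0.83 log2 (adjusted p = 9.79e-07), and its day 0 value was 0.021 log2 (adjusted p = 0.855). Tagln fell at day 0 by 1.01 log2 (adjusted p = 2.08e-06), and its day 15 value was 0.0012 log2 (adjusted p = 1). Acta2 likewise fell at day 0 by 0.74 log2 (adjusted p = 2.31e-07), with -0.11 log2 at day 15 (adjusted p = 1). Ibsp fell in all 4 states, and Ttc39c rose at day 0 by 2.42 log2 (adjusted p = 1.21e-09). Of the 18 genes of opposite direction, 8 passed at day 0 in the direction they had in osteogenic cells, also without day 0 VD3 replicate 2. In the direction they had in adipogenic cells, 0 passed. Among all 1110 genes called in osteogenic cells 665 passed in their osteogenic direction, or 563 without that library, both larger shares than 8 of 18. Among all 439 genes called in adipogenic cells 285 passed in their adipogenic direction. At day 15, 5 of the 18 passed in their osteogenic and 0 in their adipogenic direction, beside 146 of the 1110 and 81 of the 439.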

How the data were processed

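RNA of 24 samples was sequenced after ribosomal depletion, 3 libraries in each of 8 groups. The authors deposited RPKM values (reads per kilobase of transcript, scaled to the mapped reads of the library), 1 value per transcript and library, after alignment with TopHat to mm9, per the submitters' processing notes; the quantification tool and the annotation are not given in the sources used here. The files held 30795 transcripts of 25410 symbols, and 3463 symbols with several transcripts were summed. Another 25 symbols that a spreadsheet had turned into dates (40 transcripts) were left out, which left 25385 genes. Raw counts were not used here, so depth was estimated from the steps between low values, at 7.13 to 46.9 M reads over all libraries. At these depths 3 reads per kilobase came to 0.064 to 0.421 RPKM, and values near or below that rest on few reads.

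The test was limma's (limma 3.58.1, R 4.3.3) on log2(RPKM + 1), where the added 1 shrinks the change of a weakly expressed gene, for the 21097 genes that reached 1 RPKM in 3 or more libraries. The fit had 8 group means, 16 residual degrees of freedom and empirical Bayes with trend and robust options, and Benjamini-Hochberg adjusted p-values below 0.05 were called. It was run before use on simulated data with planted differences. The simulated noise was independent between genes and libraries, so it held no library-wide shifts in background or scaling. That run therefore does not bear on the changes seen with rescaling or background subtraction. Medians over lists are descriptions with no test.

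The genes named were the 12 largest differences in each direction among called genes with a group mean of at least 5 RPKM (predicted genes, small RNAs, histones and pseudogenes left out), up to 6 called in each fate with opposite signs, up to 4 called genes per list and 15 fixed genes. Others were named after their values were seen. The comparison, the members and the lists were chosen with earlier results of these data known. Alternatives were another pseudocount, other filters, 2 rescalings, the replicate number as a block, another variance model, other sets of libraries, 1 transcript per gene and each library left out. Subtraction of a background level (the median of 1466 sensory receptor genes in each library), a fit without day 0 and a day 0 fit without VD3 replicate 2 were added after seeing the data.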

Additional observations from a re-analysis of the deposited data

Results flagged for a closer look

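The VD3 effect differed between adipogenic and osteogenic cells, by the test of the difference itself, for 204 genes with a more positive and 180 genes with a more negative effect in adipogenic cells. Among the genes with the largest differences, or with called effects of opposite sign, the more positive ones on the log2 scale were 2.19 for Ttc39c, 1.87 for Col16a1, 1.87 for Elfn1, 1.78 for Nes, 1.61 for Smoc2, 1.49 for Mgp, 1.38 for Tm4sf1, 1.35 for Ccl9, 1.33 for Cdo1, 1.32 for Rgs2, 1.31 for Car3, 1.31 for Shcbp1, 1.20 for Tagln and 1.18 for Csrp1. The more negative ones were -3.20 for Mmp13, -3.07 for Ibsp, -2.92 for Slpi, -2.65 for Dio2, -2.51 for Cyp24a1, -2.41 for Omd, -2.05 for Gzme, -2.03 for Adamts1, -1.91 for Fam110c, -1.89 for Otor, -1.81 for Mmp3, -1.80 for F11r, -1.45 for Kitl and -1.27 for Rgs16. Each group had 3 libraries, too few for a check of single libraries against the others of their group.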

How the results depend on the processing

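The count of 384 differences was 199 with median-ratio rescaling, 227 with background subtraction and 227 with a replicate block within each state, and 282 to 508 under the other settings, among them 362 with a replicate block over all libraries. With quantile normalization 133 of 308 were more positive. Leaving out 1 library gave 264 to 381. The adipogenic count of 439 was 283 with median-ratio rescaling and 324 to 462 without 1 library. The osteogenic count of 1110 was 641 with background subtraction and 719 to 1118 without 1 library. Same-numbered libraries of a state had correlations of -0.095 to 0.075 between their deviations, so the numbers were not taken to pair the libraries. Of the 73 named genes with a called difference, 36 kept the call in every setting in which they were tested. Enpp3 changed sign, to 0.001 log2 (pseudocount 0.1), as the only one of the 73. Differences that had not passed also changed sign: Tnfsf11 to 0.185 and Spp1 to 0.004 with that pseudocount, Spp1 to 0.022 with median-ratio rescaling and to 0.002 with background subtraction. Without 1 library the difference ranged from -0.109 to 0.266 log2 for Vdr, from -0.132 to 0.119 for Spp1 and from -0.198 to 0.013 for Alpl. Cebpb passed in the fit on the 12 libraries (adjusted p = 0.0198). The cause of these shifts was not tested. At levels near the sensory receptor median of a library, up to 1.31 RPKM in the 12 libraries, a difference can show little.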
